A study of Homo sapiens with 4 samples.

Results

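The mitochondrial carriers of the SLC25 family were taken as every gene whose name on the array was SLC25A followed by a number, which gave 47 genes among 43317 gene names. They were represented by 60 probes, 1 probe for each of 34 genes and 2 for each of 13, and the probe with the highest mean log2 signal over the 4 arrays stood for its gene. All 47 names are current RefSeq symbols, and 1 further symbol of this form, SLC25A52, was not found under that name. Relatives with other names, such as the uncoupling proteins UCP1, UCP2 and UCP3, were not members and are given separately.

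Total RNA came from HCT116, a human colorectal cancer line, and A549, a human lung cancer line, transfected by means of the reagent Dharmafect1 with either a microRNA, miR-891b, or the negative control NC1. Each line gave an NC1 group and a miR-891b group, so that there were 4 groups, each with 1 array from 100 ng of RNA. The labels give neither the time after transfection nor the amount of RNA transfected, and the lines were grown in different media, McCoy's 5A for HCT116 and DMEM for A549. No difference between 2 arrays therefore has a replicate check, and precision is limited by how few arrays there are. Both arrays of a line came from 1 slide, so that line, medium and slide cannot be told apart.

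SLC25 proteins are carriers of the inner mitochondrial membrane, built from a membrane-spanning unit that is repeated along the chain. Each exchanges or imports a small set of solutes, among them ADP and ATP, phosphate, citrate and malate, amino acids, nucleotides, cofactors and iron, and so links the matrix to the cytosol. A few members sit elsewhere, such as SLC25A17 in peroxisomes and SLC25A46 in the outer membrane. Most of the carriers are made in the cytosol without the usual cleaved presequence and reach the inner membrane through the TOM complex, small TIM chaperones and TIM22.

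A microRNA lowers transcripts mainly through its seed, bases 2 to 8 from the 5′ end. Pairing with transcripts was not measured here. The mature strand of miR-891b is shown with its seed in capitals (RefSeq, GRCh38.p14, chrX:146001100-146001121, minus strand).
hsa-miR-891b: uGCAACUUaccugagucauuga
The DNA letters complementary to the seed, AAGTTGC, were searched on the transcript strand of the probe sequences, which cover only part of each transcript. They stood in 1 of the 60 carrier probes and in 229 (0.393%) of all 58201 gene probes. The carrier probe was that of SLC25A2, and 30 of its bases are shown with the match in capitals (hg19, chr5:140682301-140682330, minus strand).
SLC25A2: ttgaaataggaAAGTTGCtgctcttgcact
The SLC25A2 signal was dim, and was higher with miR-891b by 1.06 in HCT116 and 0.21 in A549 on the log2 scale. Its limits are given below with the basic amino acid carriers. Sites elsewhere in the carrier transcripts were not analysed here.

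Of 58201 gene probes, between 26010 and 29258 per array were well above background by the mark of the scanner software. For probes printed 5 or more times, the median SD of the log2 difference between the 2 arrays of a line was 0.0615 over 276 probes in HCT116 and 0.0711 over 287 in A549, which covers the spots and not the cultures. Each member was printed once, with no outlier mark and no saturated spot. Areas of stray fluorescence held 10.5% of gene spots on HCT116 miR-891b and 2.19% on its NC1 array, and in A549 1.83% with miR-891b and 0.021% with NC1. The spots of SLC25A1, SLC25A2, SLC25A14, SLC25A16 and SLC25A36 lay in such areas on HCT116 miR-891b, SLC25A25 on HCT116 NC1 and SLC25A43 on A549 miR-891b. Line markers matched the labels on the NC1 arrays, with 5 of 5 measured A549 markers at least 2-fold higher in A549 and 4 of 4 HCT116 markers at least 2-fold higher in HCT116. Of the 4 A549 markers measured in HCT116, AKR1B10 was higher with miR-891b by 4.47 and the other 3 had differences between -0.51 and -0.28, while AKR1C1 and ALDH1A1 were not well above background on HCT116 miR-891b. Of the 4 HCT116 markers, CLDN3 (-0.90) and CLDN7 (-0.87) were lower with miR-891b in HCT116, and in A549 CLDN3 (1.03) and EPCAM (0.74) were higher and CLDN7 (-0.96) lower. Of 5 fibroblast markers, COL1A1 was well above background on all 4 arrays and LUM on both A549 arrays, where it was higher with miR-891b by 2.14, and COL1A2, COL3A1 and DCN were not on any. Of 3 leukocyte markers, PTPRC and CD14 passed that mark on all 4 arrays and CD3E on none. The part of these cells in any carrier value was not tested.

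The first comparison set miR-891b cells against NC1 cells of the same line. Levels are log2 signals minus the 75th percentile of the array, and a difference is miR-891b minus NC1 on that scale, given for HCT116 and then A549. Signals of different probes also reflect the probes, so levels were ranked across members only to choose which to give array by array. A member was measured in a line where both of its arrays marked the probe well above background, which held for 43 of 47 members in HCT116 and 42 in A549. SLC25A18, a glutamate carrier, and SLC25A31, the ADP/ATP carrier best known from testis, were not well above background on any array.

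Most carriers differed little between miR-891b and NC1. In HCT116 the 43 measured members had a median difference of -0.11 (range -0.74 to 1.06), beside a median of -0.041 over 19104 genes. In A549 the median of 42 members was -0.013 (range -1.09 to 1.39), beside -0.059 over 21337 genes. The SD over members was 0.39 in HCT116, where it was 0.38 over all genes, and 0.44 in A549, where it was 0.61. Calls rest on size alone, since each group had a single array.

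At 2-fold, 0 of 43 members were lower in HCT116, against 0.843% of all genes, and 1 was higher, SLC25A2, against 1.16%. In A549, 2 of 42 were lower, SLC25A5 and SLC25A40, against 5.57%, and 1 was higher, SLC25A21, against 4.01%. At 1.5-fold, 5 members were lower in HCT116 (11.6% of members, 5.65% of all genes) and 3 were higher (6.98% and 3.91%). In A549, 2 were lower at 1.5-fold (4.76% of members, 15.3% of all genes) and 3 were higher (7.14% and 11.1%). The members lower in HCT116 were SLC25A1, SLC25A23, SLC25A34, SLC25A35 and SLC25A38, and those higher were SLC25A2, SLC25A27 and SLC25A48. In A549 SLC25A16 and SLC25A34 joined SLC25A21 among the higher members, and none joined the lower pair.

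**Figure D1:**
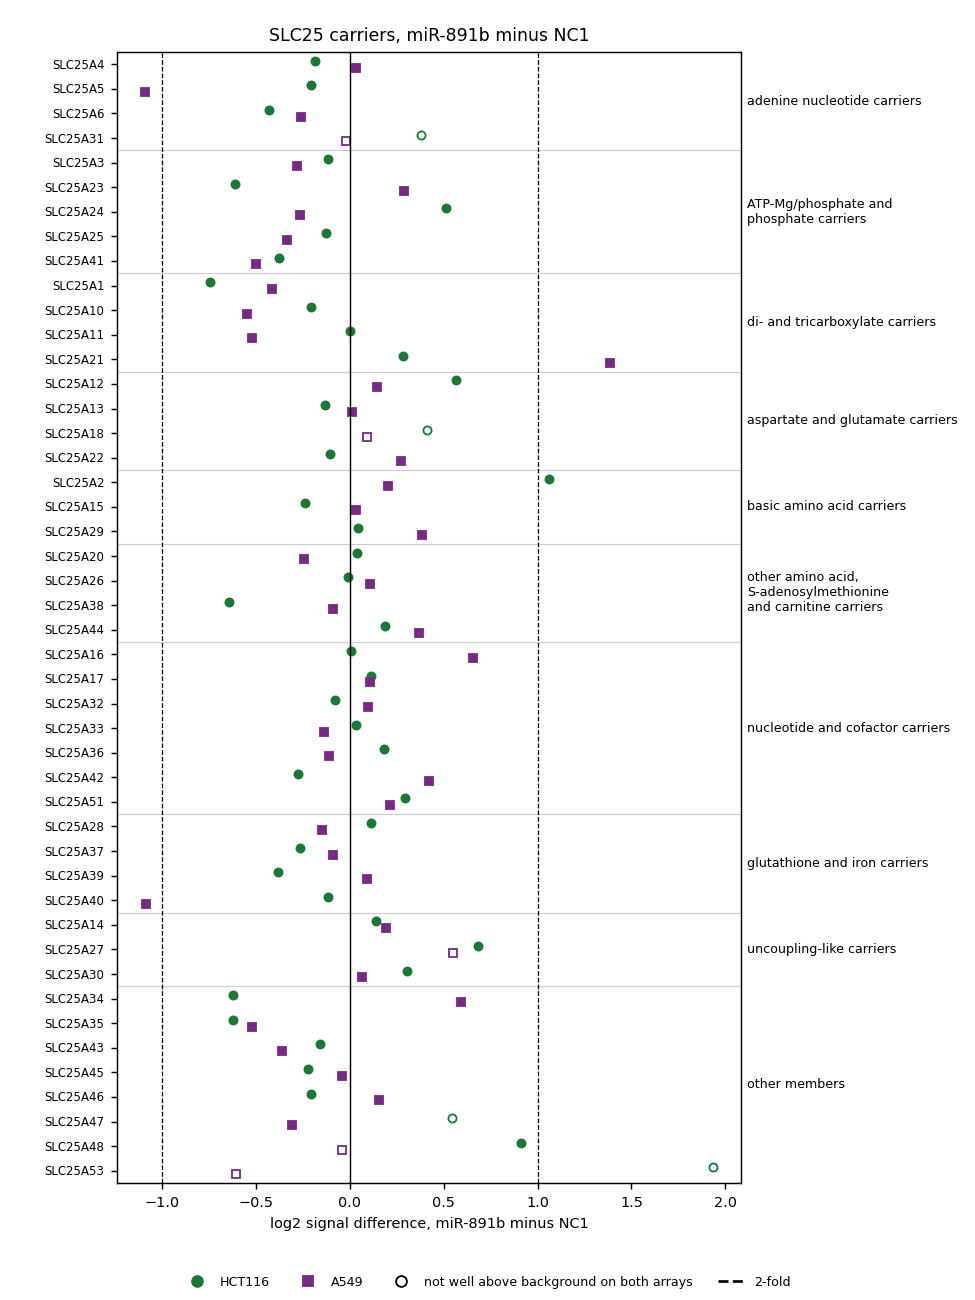
Difference of SLC25 carriers, miR-891b minus NC1 on the log2 scale, with HCT116 as circles and A549 as squares, grouped by solute; open symbols mark a probe that was not well above background on both arrays, and dashed lines mark 2-fold. In A549 SLC25A5 and SLC25A40 lie left of the dashed lines at -1.09 and -1.08, and SLC25A21 lies to the right at 1.39.

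The adenine nucleotide carriers exchange cytosolic ADP for matrix ATP and are the main exit of ATP from mitochondria. SLC25A5 (ANT2), the form usual in dividing cells, had levels of 8.21 with NC1 and 8.01 with miR-891b in HCT116, and of 8.32 and 7.23 in A549. Its probe lies at chrX:118605131-118605190 (hg19, as are all probe positions). The A549 miR-891b array stood below the other 3, and the differences were -0.21 in HCT116 and -1.09 in A549. SLC25A6 (ANT3), a widely expressed form, had levels of 7.85 and 7.41 in HCT116 and 7.40 and 7.14 in A549. Its differences were -0.43 and -0.26, but the sign in A549 turned under another setting (range -0.33 to 0.15). Its second probe gave -0.45 and -0.41. SLC25A4 (ANT1), the form of heart and muscle, differed by -0.18 and 0.035. In A549 only ANT2 of these 3 was past 2-fold, and in HCT116 the 3 lay between -0.43 and -0.18. These genes have many near-identical processed copies in the genome, which the probes may not separate.

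The A549 array with the low SLC25A5 signal also had low signals for genes of dividing cells. All 15 listed genes of that kind, such as MKI67 and TOP2A, were at least 2-fold lower in A549, against 5.57% of all genes. Their differences lay between -1.93 and -1.57. Their summed signal was 26781 with NC1 and 7987 with miR-891b. None of the 15 was past 1.5-fold in HCT116, where the sums were 18237 and 19541. Their part in the carrier values was not tested, and in bulk RNA fewer cells of a kind cannot be told apart from less RNA per cell.

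SLC25A3 brings phosphate, and also copper, into the matrix, where phosphate is joined to ADP. Its levels were 9.36 and 9.24 in HCT116 and 8.87 and 8.59 in A549. Its differences of -0.11 and -0.28 ran from -0.11 to 0.067 and from -0.28 to 0.13 over the other settings, so that neither has a fixed sign. The ATP-Mg/phosphate carriers, most of which sense calcium, shift the adenine nucleotide pool of the matrix. SLC25A23 had levels of 4.98 and 4.37 in HCT116 and 3.62 and 3.91 in A549. Its differences of -0.61 and 0.29 had opposite signs, but its second probe differed by -0.06 and 0.07. SLC25A24 differed by 0.51 and -0.27, SLC25A25 by -0.13 and -0.33, and SLC25A41 by -0.38 and -0.50. Of these 5 carriers 1 was past 1.5-fold in HCT116 and 0 in A549.

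The di- and tricarboxylate carriers move the acids of the citric acid cycle. SLC25A21, the oxodicarboxylate carrier used in lysine and tryptophan breakdown, had levels of -0.35 and -0.067 in HCT116 and of -2.22 and -0.83 in A549. The probe lies at chr14:37149770-37149829. The A549 NC1 array was the low one, at a signal of 16.1, against 41.7 with miR-891b and 43.1 and 54.4 on the HCT116 arrays. The difference was 0.28 in HCT116 and 1.39 in A549, the highest among measured members in A549. SLC25A1, the citrate carrier that supplies acetyl units for lipid synthesis, had levels of 4.43 and 3.69 in HCT116 and 3.56 and 3.15 in A549. It was lower with miR-891b in both lines, with differences of -0.74 and -0.41. Its spot on HCT116 miR-891b lay in an area where 21.6% of the nearby spots, dim elsewhere, were well above background. SLC25A11, the oxoglutarate carrier of the malate-aspartate shuttle, had levels of 2.73 and 2.73 in HCT116 and 3.07 and 2.55 in A549. SLC25A10, the dicarboxylate carrier, differed by -0.21 and -0.55. In A549 SLC25A1, SLC25A10 and SLC25A11 thus lay between -0.55 and -0.41, on the other side of 0 from SLC25A21.

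**Figure D2:**
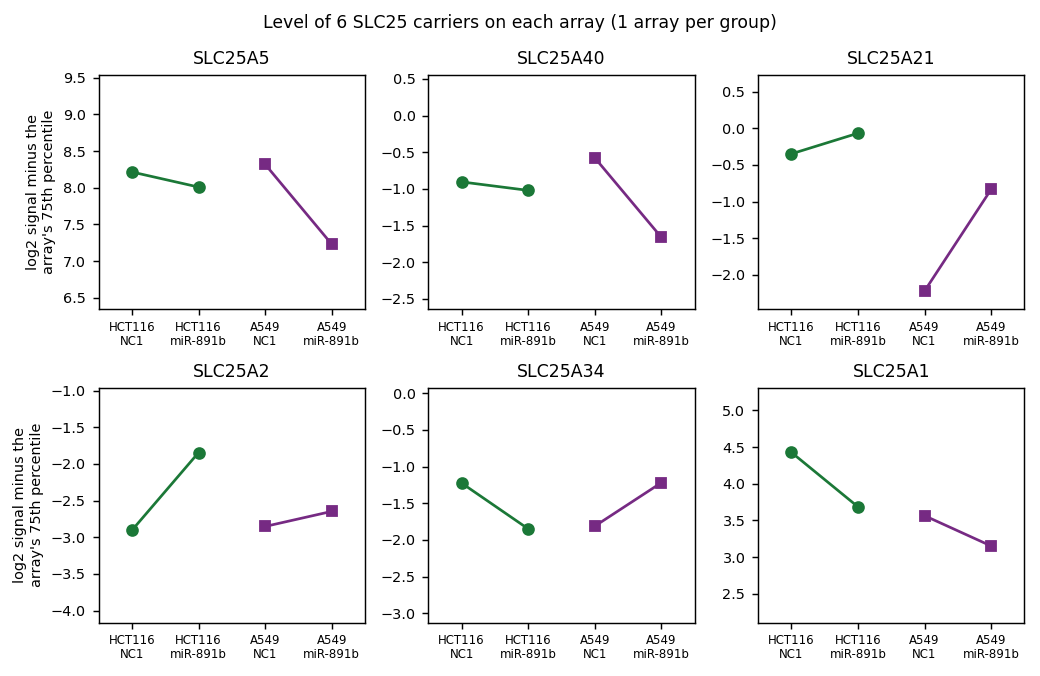
Level of 6 carriers on the 4 arrays, as log2 signal minus the 75th percentile of the array, with HCT116 as circles and A549 as squares and a line joining both arrays of a cell line; each panel spans the same log2 range around its own mean. SLC25A5 and SLC25A40 were lowest on A549 miR-891b, SLC25A21 was lowest on A549 NC1 at -2.22, and SLC25A2 was higher on HCT116 miR-891b than on the other arrays.

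Among the aspartate and glutamate carriers, SLC25A12 and SLC25A13 complete the malate-aspartate shuttle. SLC25A12 (aralar) had levels of 3.18 and 3.74 in HCT116 and 3.22 and 3.36 in A549, with differences of 0.56 and 0.14. SLC25A22, a glutamate carrier, had levels of 4.88 and 4.78 in HCT116 and 3.23 and 3.5 in A549. SLC25A13 (citrin) differed by -0.13 and 0.013. None of these 3 measured members was past 1.5-fold in a line. The enzymes that share these shuttles were listed separately (such as GOT1, MDH1, ACLY and ME1). None of the 8 was past 1.5-fold in HCT116. GOT1 (-0.86) and ACLY (-0.82) were lower by at least 1.5-fold in A549, as were 15.3% of all genes.

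The basic amino acid carriers take ornithine, arginine and lysine across the membrane. SLC25A2, an ornithine carrier, had levels of -2.90 and -1.85 in HCT116 and of -2.85 and -2.65 in A549. The HCT116 miR-891b array was the high one, and the difference of 1.06 was the highest among measured members in HCT116. The signals were dim, at 7.33 and 15.9 in HCT116, where the lowest signals well above background were 4.69 and 6.49. In A549 they were 10.4 and 11.9, and the difference of 0.21 ran from 0.034 to 0.27 over the settings. The spot lay in a stray area on HCT116 miR-891b, with 10.9% of nearby dim spots well above background. SLC25A15, the ornithine carrier of the urea cycle, had levels of 1.21 and 0.97 in HCT116 and 0.48 and 0.51 in A549, and its second probe differed by -0.16 and -0.12. SLC25A29 had levels of 3.99 and 4.04 in HCT116 and 3.33 and 3.71 in A549, with 0.61 from its second probe in A549.

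SLC25A38 brings glycine into mitochondria for heme synthesis, and had levels of 1.88 and 1.24 in HCT116 and 1.6 and 1.51 in A549. Its differences were -0.64 and -0.091. SLC25A44, a carrier of branched-chain amino acids, had levels of 3.13 and 3.32 in HCT116 and 4.19 and 4.55 in A549. It was slightly higher with miR-891b in both lines. The carnitine carrier SLC25A20, which brings acylcarnitines in for fatty acid oxidation, differed by 0.039 and -0.25, and the S-adenosylmethionine carrier SLC25A26 by -0.0097 and 0.11. Of 5 carnitine enzymes, 1 was past 1.5-fold in HCT116 (CPT1B, -0.79), where 5.65% of all genes were that much lower. In A549 0 were past it, and all 5 lay between 0.16 and 0.49.

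The nucleotide and cofactor carriers import what the matrix does not make. SLC25A32, a folate and FAD carrier that serves mitochondrial one-carbon metabolism, had levels of 4.09 and 4.01 in HCT116 and 2.77 and 2.87 in A549. Its differences were -0.079 and 0.097. SLC25A16, linked to coenzyme A, differed by 0.0047 in HCT116 and 0.66 in A549, and its second probe differed by -0.041 and 0.81. The NAD carrier SLC25A51 differed by 0.30 and 0.21, and the pyrimidine nucleotide carriers SLC25A33 and SLC25A36 by 0.031 and 0.18 in HCT116 and by -0.14 and -0.11 in A549. In HCT116 none of the 8 members of this group was past 1.5-fold.

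SLC25A39 and SLC25A40 are close relatives tied to the import of glutathione. SLC25A40 had levels of -0.90 and -1.02 in HCT116 and of -0.58 and -1.66 in A549, from a probe at chr7:87473085-87473144. The A549 miR-891b array was again the low one, with differences of -0.12 in HCT116 and -1.08 in A549. SLC25A39 had levels of 5.65 and 5.26 in HCT116 and 4.05 and 4.14 in A549. Its differences of -0.38 and 0.089 had opposite signs. The iron carrier SLC25A37 (mitoferrin-1) had levels of 3.36 and 3.10 in HCT116 and 2.44 and 2.34 in A549, and SLC25A28 (mitoferrin-2) differed by 0.11 and -0.15. Among 7 genes of heme and iron-sulfur cluster synthesis, 0 were past 1.5-fold in HCT116. In A549 2 of the 7 were at least 1.5-fold lower, against 15.3% of all genes, among them ISCU, the iron-sulfur scaffold (-1.53).

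The uncoupling-like carriers resemble the uncoupling proteins in sequence. SLC25A14 had levels of 3.13 and 3.26 in HCT116 and 3.97 and 4.16 in A549, and SLC25A30 of 2.23 and 2.54 in HCT116 and 1.48 and 1.54 in A549. SLC25A27 differed by 0.68 in HCT116, where its second probe differed by -0.032. In A549 it was well above background with miR-891b only, at least 1.46-fold higher than with NC1. Such a bound sets the bright array against the higher of the dim probe's own signal and the lowest signal that passed on the dim array.

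Among the remaining members, many without a settled solute, SLC25A34 was lower in one line and higher in the other. Its levels were -1.22 and -1.85 in HCT116 and -1.81 and -1.22 in A549, with differences of -0.62 and 0.59. After normexp correction with quantile normalization they were -0.20 and 0.19, neither past 1.5-fold. That setting adds an offset of 50, above the probe's signal on each array, which shrinks log2 differences. The probe lies at chr1:16067824-16067883. SLC25A35 differed by -0.62 and -0.52, lower in both lines but past 1.5-fold only in HCT116. SLC25A43 had levels of 2.04 and 1.88 in HCT116 and 3.0 and 2.64 in A549, SLC25A45 of -1.85 and -2.07 in HCT116 and -0.98 and -1.02 in A549, and SLC25A46, which takes part in membrane fission, of 1.84 and 1.64 in HCT116 and 2.59 and 2.75 in A549. None of those 3 was past 1.5-fold. SLC25A48, linked to choline, had levels of -3.09 and -2.18 in HCT116 and was not well above background on either A549 array. Its difference in HCT116 was 0.91, from signals of 6.43 and 12.6. It was 0.14 after normexp correction with quantile normalization, whose offset of 50 exceeded those signals. The second SLC25A48 probe, not well above background on both HCT116 arrays, differed by 0.37. SLC25A53, with levels of -5.83 and -3.89 in HCT116 and -3.74 and -4.35 in A549, was well above background on A549 NC1 alone, where it was at least 1.14-fold higher than with miR-891b, and SLC25A47 was at least 1.46-fold higher with miR-891b in HCT116.

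Where a gene had 2 probes measured in a line, the median gap between their differences was 0.092 in HCT116 and 0.15 in A549, over 11 genes each. The widest gap was 0.71 for SLC25A27 in HCT116 and 0.28 for SLC25A37 in A549. In each line 4 of the 11 pairs had opposite signs. SLC25A2, SLC25A5, SLC25A21, SLC25A34 and SLC25A40 each had 1 probe, so that no second probe bears on their differences.

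Of 41 members measured in both lines, 13 were lower in both and 10 were higher in both, so that 23 had the same sign, while the share over 18062 genes was 54.9%. No member was past 1.5-fold alike in both lines. SLC25A34 was the 1 member past it in opposite directions. Across the 41 members the differences had a Pearson r of 0.21 and a Spearman rho of 0.24, given as a description, beside an r of 0.13 over all genes. These points share 4 arrays and their scaling.

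**Figure D3:**
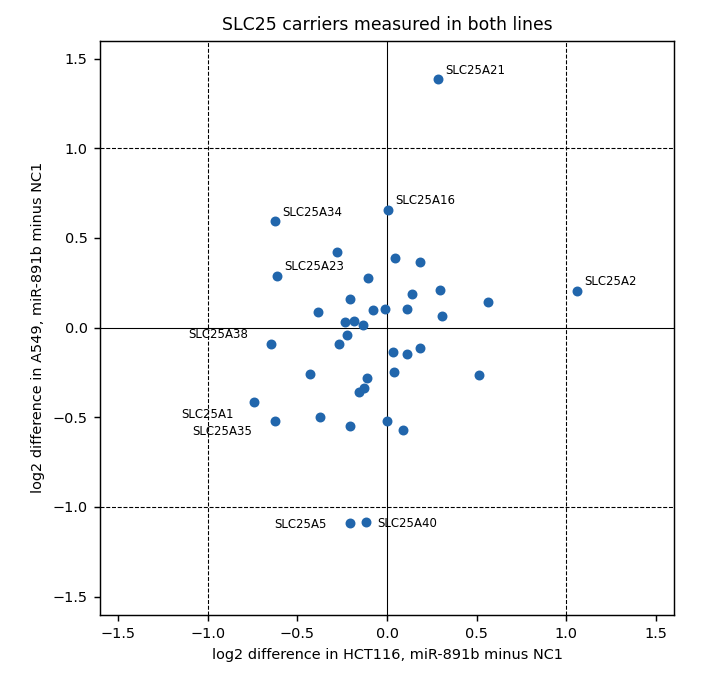
Difference in A549 against difference in HCT116, miR-891b minus NC1 on the log2 scale, for the 41 carriers measured in both lines, with dashed lines at 2-fold and names for members past 1.5-fold in a line. No point lies past 2-fold on both axes.

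An additive model took the lines as the only replication of the transfection, with limma across 22710 genes and 1 residual degree of freedom. It called 0 genes (0.0%) at a Benjamini-Hochberg adjusted p under 0.05, with 1214 genes at an unadjusted p under 0.05. Of 44 members tested, 0 passed and 0 had an unadjusted p under 0.05, and their adjusted p from limma ran from 0.793 to 0.995. SLC25A5 had a mean difference of -0.65 (SE 0.32) and SLC25A21 of 0.83 (SE 0.36), both with a limma adjusted p of 0.793. On simulated data of this size the model called 0 of 40 genes planted at 2-fold and 28 of 40 planted at 8-fold.

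The 2-fold calls differed under another background correction combined with quantile normalization. After normexp correction with quantile normalization the A549 differences were -0.70 for SLC25A5, -0.36 for SLC25A40 and 0.38 for SLC25A21. SLC25A2 differed by 0.13 in HCT116, so that no member was past 2-fold. All-gene shares fell too, to 2.01% lower and 1.575% higher in A549 and 0.063% and 0.141% in HCT116. This setting adds an offset of 50, which shrinks log2 differences of dim probes. Signals of SLC25A40 and SLC25A21 in A549 and of SLC25A2 in HCT116 were near or below 50, so it cannot decide their calls. SLC25A5, with A549 signals of 23867 and 11139, lay far above that offset. Quantile normalization alone gave -0.72 for SLC25A5 and 0.92 for SLC25A2, both short of 2-fold. It also moved the bright SLC25A3 in A549 from -0.28 to 0.13, and SLC25A6 from -0.26 to 0.15.

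Genes that work beside the carriers were taken from lists of general knowledge. Over all genes, 15.3% were lower and 11.1% higher by at least 1.5-fold in A549, and 5.65% and 3.91% in HCT116. Other inner membrane carriers included the uncoupling proteins, MTCH1 and MTCH2, the pyruvate carrier and the sideroflexins, of which SFXN1 carries serine. Of 11 measured, 1 was lower by 1.5-fold or more in HCT116 (UCP2, -0.72), and in A549 MPC2, a pyruvate carrier subunit, was lower (-0.69) and SFXN5 higher (0.68). Of 13 measured genes of carrier import, 0 were past 1.5-fold in HCT116, with a median of -0.068. In A549 4 were lower, namely TIMM10 (-1.14), TOMM22 (-0.90), TOMM70A (-0.78) and TIMM8A (-0.68), and the list's median was -0.24. Of 8 genes of the outer membrane channels and of mitochondrial mass, TFAM, which packages and transcribes mitochondrial DNA, was lower in A549 (-1.49) and the other 7 were not past 1.5-fold in either line. The medians of this last list were 0.072 in HCT116 and -0.29 in A549.

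The second comparison set the lines against each other without miR-891b. On the NC1 arrays 41 members were measured in both lines, and their median A549 minus HCT116 difference was -0.59 (range -1.89 to 1.49), where the median of 19218 genes was -0.10. At 2-fold, 12 of the 41 (29.3%) were lower in A549, against 16.2% of all genes, and 3 (7.32%) were higher, against 11.1%. The 12 came from 6 of the solute groups. They were the ADP/ATP carrier SLC25A4 (-1.10), the ATP-Mg/phosphate carriers SLC25A23 (-1.36), SLC25A25 (-1.02) and SLC25A41 (-1.34), the acid carriers SLC25A10 (-1.06) and SLC25A21 (-1.87), and the glutamate carrier SLC25A22 (-1.66). The others were SLC25A32 (-1.32), SLC25A33 (-1.86) and SLC25A42 (-1.89) of the cofactor group, and SLC25A28 (-1.21) and SLC25A39 (-1.6) of the glutathione and iron group. The 3 higher in A549 were citrin (SLC25A13, 1.49), SLC25A44 (1.05) and SLC25A51 (1.31). The second SLC25A51 probe differed by -0.21, so its direction rests on the probe chosen. The second SLC25A23 probe differed by -0.89, short of 2-fold. Second probes of SLC25A16 (1.38), SLC25A36 (-1.08) and SLC25A37 (-1.27) were past 2-fold where the chosen probes were not.

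The pair of miR-891b arrays shares no array with the NC1 pair and gave the difference between the lines again, on the same slides. Of 43 members measured there, 11 were at least 2-fold lower in A549, against 20.7% of all genes, and 6 were higher, against 11.4%, with a median of -0.53. Over the 41 members measured on both pairs, 33 had the same sign, and 12 of the 15 past 2-fold on the NC1 arrays were past it in the same direction on the miR-891b arrays. These shares were 80.5% and 80.0% of members, beside 80.7% of 18062 genes and 70.8% of the 4961 genes past 2-fold on the NC1 arrays. The 3 that were not were SLC25A4 (-0.88), SLC25A21 (-0.77) and SLC25A23 (-0.46). By its chosen probe SLC25A48 was well above background in HCT116 but not in A549. It was at least 1.82-fold higher in HCT116 on the NC1 arrays and at least 3.36-fold on the miR-891b arrays. The second SLC25A48 probe, not well above background on both NC1 arrays, differed by -0.47. SLC25A27 was likewise at least 3.29-fold higher in HCT116 on the NC1 arrays by its chosen probe, from dim signals of 11.7 and 4.85. Its second probe, not well above background on both of these arrays, differed by -1.16.

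After normexp correction with quantile normalization 5 members were at least 2-fold lower in A549 NC1 and 3 were higher, where the shares over all genes were 7.25% and 6.0%. Among related lists on the NC1 arrays, 8 genes of the outer membrane channels and of mitochondrial mass had a median difference of -0.092, and 13 genes of carrier import had one of -0.47.

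**Figure D4:**
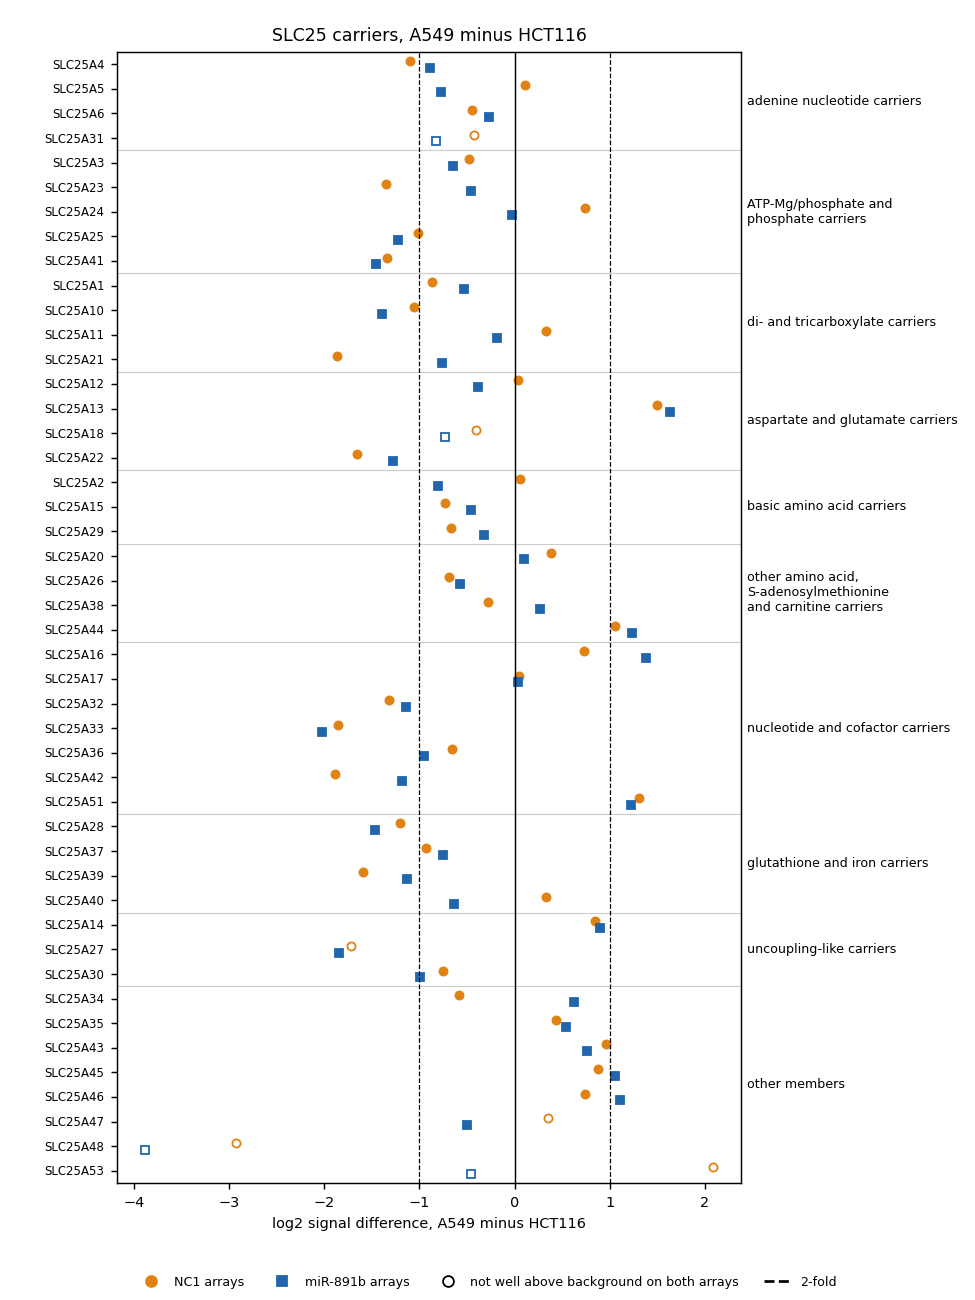
Difference of SLC25 carriers between the lines, A549 minus HCT116 on the log2 scale, on the NC1 arrays (circles) and on the miR-891b arrays (squares), grouped by solute; open symbols mark a probe that was not well above background on both arrays, and dashed lines mark 2-fold. On the NC1 arrays 12 measured carriers lie left of the dashed lines and 3 to the right.

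The stretches before the RefSeq start of the 3 carriers past 2-fold in A549 are shown, since SLC25A5 and SLC25A40 were lower together while SLC25A21 was higher. They hold 250 bases each (RefSeq, GRCh38.p14), at chrX:119468194-119468443 on the plus strand for SLC25A5, chr7:87876361-87876610 on the minus strand for SLC25A40 and chr14:37172607-37172856 on the minus strand for SLC25A21. Capitals mark matches on either strand to the GC box GGGCGG, the CCAAT box CCAAT and the CHR element TTTGAA, which is known from cell cycle genes.
SLC25A5: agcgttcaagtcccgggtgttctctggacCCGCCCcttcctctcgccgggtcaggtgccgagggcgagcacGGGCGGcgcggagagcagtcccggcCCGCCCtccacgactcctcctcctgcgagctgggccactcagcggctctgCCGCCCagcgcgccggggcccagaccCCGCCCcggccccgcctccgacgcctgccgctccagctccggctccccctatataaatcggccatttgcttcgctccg
SLC25A40: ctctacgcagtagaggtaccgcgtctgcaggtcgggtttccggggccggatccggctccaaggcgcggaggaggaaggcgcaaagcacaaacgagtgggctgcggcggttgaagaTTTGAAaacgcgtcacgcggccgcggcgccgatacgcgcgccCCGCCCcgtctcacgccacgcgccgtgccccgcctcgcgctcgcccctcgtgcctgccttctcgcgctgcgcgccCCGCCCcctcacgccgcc
SLC25A21: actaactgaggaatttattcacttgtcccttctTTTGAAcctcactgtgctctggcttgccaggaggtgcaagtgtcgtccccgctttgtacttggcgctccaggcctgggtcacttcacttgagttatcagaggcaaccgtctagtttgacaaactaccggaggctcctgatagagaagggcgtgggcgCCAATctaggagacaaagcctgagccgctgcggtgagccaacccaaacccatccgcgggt
The GC box had 5 matches for SLC25A5, 2 for SLC25A40 and 0 for SLC25A21, and stood in 42.6% of 35116 such stretches in the table. The CHR letters had 1 match each for SLC25A40 and SLC25A21 and 0 for SLC25A5, and stood in 13.3%. CCAAT had 1 match, for SLC25A21, and stood in 32%. Of 39 members with an entry, 29 held a GC box, 20 a CCAAT box and 7 the CHR letters. No matches overlapped in the 3 stretches shown.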

How the data were processed

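The deposited scanner files hold intensity values of 4 one-colour Agilent arrays on a linear scale, quantified with Agilent Feature Extraction 11.5.1.1, with spatial and multiplicative detrending switched on, per the file headers. The authors' deposited value table holds log2 values whose making is not given in the sources used here. Set against the scaled scanner values used here, they differed per array by a median of at most 0.0069 (column medians of -3.8, -3.6, -3.71 and -3.68 in the order of the labels), and were an alternative.

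Here, log2 processed signals without outlier marks were averaged per probe and the 75th percentile of gene probes was subtracted (signals of 54.9, 57.0, 74.8 and 74.2). Samples were grouped by title. A spot lay in a stray area where, of the neighbours up to 10 rows or columns away that were dim elsewhere, at least 10% passed as well above background on that array. The additive model used limma 3.58.1 in R 4.3.3 with the line as a term, on genes well above background on at least 2 of 4 arrays, and its steps were tested on simulated data. Other steps used Python 3.11.15, numpy 2.4.6 and pandas 2.3.3.

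Members, solute groups and lists were chosen with earlier results of these data known. Values per array are given for members past 2-fold in a line, past 1.5-fold alike in both lines or past 4-fold between the NC1 arrays, for the 5 members with the highest and 3 with the lowest level among those well above background on all 4 arrays, and for the 2 brightest of each solute group. Alternatives were 4 other normalizations or value sources, probe means, no filter on dim probes, outlier spots kept, and probes outside stray areas. The normexp correction added an offset of 50 to the signals. Values of some single genes are not reported here, although they stay in the counts and medians.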

Additional observations from a re-analysis of the deposited data

Results flagged for a closer look

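SLC25A34 had opposite signs in the lines, -0.62 in HCT116 and 0.59 in A549, a difference of 1.22 that was not tested. After normexp correction with quantile normalization the values were -0.20 and 0.19, with an offset of 50 that exceeded the probe's signals. SLC25A23 differed by -0.61 in HCT116 and 0.29 in A549, a difference of 0.90 that was not tested either, and its second probe differed by -0.06 and 0.07. Both were picked out because at least 1 line was past 1.5-fold and the lines had opposite signs beyond 2 SD of repeated spots.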

How the results depend on the processing

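No member passed the additive model in any of the 8 other settings, and none was 2-fold lower in HCT116 under any of them. Normexp with quantile normalization gave 0 members higher and 1 lower at 1.5-fold in HCT116, and 1 lower at 1.5-fold in A549. At 2-fold it gave 0 higher in either line and 0 lower in A549, where all-gene shares were 2.01% lower and 1.575% higher. In HCT116 those shares were 0.063% and 0.141%. It also gave 5 members at least 2-fold lower in A549 NC1, against 7.25% of all genes. The HCT116 median was -0.0085, beside -0.0145 over all genes. Quantile normalization gave 3 lower at 1.5-fold in HCT116 and 0 higher at 2-fold there, against 0.979% of all genes. In A549 it gave 1 lower at 2-fold, against 4.902%, and a median of 0.10, beside -0.0065 over all genes. With no filter on dim probes the HCT116 median was -0.0097, beside 0.1973 over all genes. In that setting 2 of 47 members were at least 2-fold higher in HCT116, against 6.437% of all genes. Outside stray areas 0 were, against 0.831%, since SLC25A2 left. On the miR-891b arrays, chosen after seeing the data, 6 members were at least 2-fold higher in A549, against 11.4% of all genes. The members chosen to be given array by array had 51 differences, tried in 400 combinations with a setting. Of these combinations, 327 moved by no more than the median SD of repeated spots and 73 moved further. Differences of other members, such as SLC25A16, SLC25A27 and SLC25A35, were not tried one by one. Among the 51, none past 2-fold changed sign. Smaller differences of SLC25A3, SLC25A6, SLC25A15, SLC25A37 and SLC25A45 in A549 and of SLC25A3 in HCT116 did under some setting. Dim members such as SLC25A2 and SLC25A48 have the least signal over background, and the normexp offset of 50 shrinks their differences. The additive model already pairs miR-891b with NC1 within a line, and the labels give no replicate numbers to pair by.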
